A study of Mus musculus with 6 samples.

Results

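The proteasome genes of mouse inguinal white adipose tissue (iWAT) were examined with and without the zinc transporter ZIP13. The members are the genes whose symbols start with Psma, Psmb, Psmc, Psmd, Psme, Psmf or Psmg followed by a number and at most 1 letter, found through the RefSeq transcript that each array probe is annotated to. This rule gave 49 genes, of which 48 had a probe and 46 were tested among 15307 genes in all. Psme2 had no probe by transcript, and Psma8 and Psmb11, the testis and thymus forms of core subunits, were not well above background on any array. RNA came from 10-week-old mice, with 3 arrays from Zip13-KO mice and 3 from their wild-type (WT) littermates. In the Zip13-KO line, made in R1 embryonic stem cells, exons 6 to 8 of Zip13 (Slc39a13) are replaced by a Neo cassette. Both genotypes were backcrossed to C57BL/6J for at least 7 generations and ate powdered food, because the knockout mice have missing teeth. Which of the study's feeds (standard or rich in fat) these mice ate, and their sex, were not given. The labels do not say whether the arrays of a genotype come from separate mice, so p-values measure the spread between these samples, which may be technical.

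The proteasome degrades proteins tagged with ubiquitin. Its core particle is a stack of rings made of alpha subunits, which gate the entrance, and beta subunits, of which Psmb5, Psmb6 and Psmb7 cut the chain. The regulatory particle that caps the core has a base, with ATPases that unfold the substrate, and a lid, which takes off the ubiquitin. In leukocytes, and in other cells exposed to interferon gamma, Psmb8, Psmb9 and Psmb10 take the places of Psmb5, Psmb6 and Psmb7, and the resulting immunoproteasome favours peptides that fit MHC class I. In thermogenic fat, Nfe2l1 (also called Nrf1) is known to drive transcription of proteasome genes.

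Sequence around the transcription start was compared for the immunosubunits, the activator Psme1 and the constitutive catalytic subunits. The choice followed the sign of the fitted change, below 0 for each immunosubunit and Psme1, above 0 for each constitutive catalytic subunit. Of these genes, Psmb5, Psmb6, Psmb8 and Psmb9 did not pass the adjusted p threshold given below, and the genotypes overlapped for Psmb6. Differences between these groups were not tested. RefSeq windows of 300 bases (250 before the start and 50 after, assembly GRCm38.p6) were found for 41 of the 49 members, 44 windows in all. Both strands were searched for GAAANNGAA (the core of an interferon response element), TGACNNNGC (the core of an antioxidant response element) and CCAAT. The first 270 bases of 5 windows are printed here, 5′ to 3′ on the strand of the gene, and capitals mark a match to either of the first 2 of these motifs.
Psmb8, chr17:34197945-34198214 (+): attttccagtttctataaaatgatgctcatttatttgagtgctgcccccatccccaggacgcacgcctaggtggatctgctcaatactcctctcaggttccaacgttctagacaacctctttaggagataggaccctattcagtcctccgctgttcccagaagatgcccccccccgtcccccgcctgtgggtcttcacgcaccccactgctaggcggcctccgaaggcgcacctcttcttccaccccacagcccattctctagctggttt
Psmb9, chr17:34187311-34187580 (-): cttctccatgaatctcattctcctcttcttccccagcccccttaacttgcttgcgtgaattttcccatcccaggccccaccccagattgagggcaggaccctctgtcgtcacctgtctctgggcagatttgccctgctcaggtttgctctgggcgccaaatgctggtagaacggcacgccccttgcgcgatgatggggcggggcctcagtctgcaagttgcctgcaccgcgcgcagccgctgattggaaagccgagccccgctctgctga
Psme1, chr14:55578244-55578513 (+): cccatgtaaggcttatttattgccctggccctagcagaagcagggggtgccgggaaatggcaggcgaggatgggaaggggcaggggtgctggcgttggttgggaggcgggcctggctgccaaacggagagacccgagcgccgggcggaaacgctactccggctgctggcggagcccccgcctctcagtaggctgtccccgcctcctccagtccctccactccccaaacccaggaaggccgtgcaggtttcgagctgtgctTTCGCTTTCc
Psmb5, chr14:54617976-54618245 (-): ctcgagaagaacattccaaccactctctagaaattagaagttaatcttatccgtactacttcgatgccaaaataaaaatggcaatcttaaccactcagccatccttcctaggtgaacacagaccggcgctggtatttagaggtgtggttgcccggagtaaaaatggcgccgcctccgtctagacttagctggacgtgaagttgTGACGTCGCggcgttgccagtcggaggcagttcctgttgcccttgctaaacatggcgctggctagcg
Psmb6, chr11:70525107-70525376 (+): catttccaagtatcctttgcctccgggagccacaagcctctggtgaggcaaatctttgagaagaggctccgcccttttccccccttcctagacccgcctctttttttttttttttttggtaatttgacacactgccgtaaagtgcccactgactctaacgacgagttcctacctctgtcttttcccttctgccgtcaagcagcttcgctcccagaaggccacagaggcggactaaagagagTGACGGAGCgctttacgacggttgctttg
The match in Psme1 was TTCGCTTTC at position 11, counted from the transcription start with the base before it as -1, and is the interferon motif read on the other strand. In the constitutive subunits, TGACGTCGC lay at position -47 of Psmb5 and TGACGGAGC at position -9 of Psmb6. Psmb8 and Psmb9 held no match to the first 2 motifs, and 275 bases of the Psmb9 window were also in the window of Tap1, a peptide transporter gene read from the opposite strand. Along chromosome 17 the order of genes is Psmb9, Tap1, Psmb8 and Tap2. The window of Psmb10 held none of the 3 motifs, and no window was found for Psmb7.

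Such short motifs are common. GAAANNGAA was in 8.56% of all 32851 windows and in 15.9% of the proteasome windows (Psmb3, Psmb4, Psmc2, Psmd4, Psmd9, Psme1 and Psmg4). TGACNNNGC was in 12.4% and 13.6% (Psmb5, Psmb6, Psmc6, Psmd12, Psmd9 and Psme4), and CCAAT in 37.4% and 31.8%, respectively.

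All 6 arrays were of the 1-colour kind, in which a brighter spot means more of the transcript bound to its probe, and lay on 1 slide read in 1 scan. Of the spots, 58.8% to 63.2% per array were well above background and none was saturated. The Slc39a13 probe checked the labels. Its log2 intensity was 11.29, 10.87 and 10.72 in the WT and 6.76, 6.66 and 6.47 in the Zip13-KO arrays (log2 fold change -4.33, limma adjusted p = 0.0013). All 8 adipocyte markers were measured above background, among them Adipoq and Plin1. All 7 brown and beige markers were called higher in Zip13-KO iWAT, beside 10.3% of all genes tested, with Ucp1 up by 5.16 on the log2 scale. On the slide, column 1 held the WT arrays with replicate 1 of Zip13-KO, and column 2 held Zip13-KO replicates 2 and 3.

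With a change of over 1.5-fold (log2 0.58) and an adjusted p under 0.05 required, 0 of the 46 proteasome genes were called higher and 0 lower in Zip13-KO iWAT by limma, beside 10.3% of all genes tested called higher and 8.38% called lower. The methods' t-test also called 0 in either direction with this fold threshold. At an adjusted p under 0.05 with no fold threshold, 6 members (13.0%) were higher, beside 19.3% of all genes, and 2 (4.35%) were lower, beside 15.2%. When arrays were scaled by their 75th percentile and not by quantiles, 14 members (30.4%) were higher, beside 21.6% of all genes, and 0 were lower, beside 13.5%. At an unadjusted p under 0.05, 11 members (23.9%) were higher, beside 25.3% of all genes, and 3 (6.52%) were lower, beside 21.8%. All 3 Zip13-KO arrays lay above all 3 WT arrays for 16 members (34.8%), beside 29.2% of all genes, and below them for 6 (13.0%), beside 25.9%. Under quantile normalization, the shares of members that were higher lay on either side of the background, depending on the rule, and those that were lower lay under it. The changes were small, with a median of 0.08 on the log2 scale and a range from -0.54 (Psmb8) to 0.39 (Psmg1), while the median over all genes was -0.0004 with quartiles at -0.28 and 0.29.

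The members were then grouped by their place in the complex, and differences between the groups were not tested. Of the 31 tested subunits of the constitutive core, base and lid, 23 had a fitted change above 0, and the median was 0.085 in the core (14 genes), 0.03 in the base (9 genes) and 0.13 in the lid (8 genes). All 3 immunosubunits lay below 0, with a median of -0.46 and no overlap between the genotypes. The 7 assembly chaperones had a median of 0.12 and the 4 activators -0.05. At an adjusted p under 0.05, Psmb7, Psmc6, Psmd8, Psme3, Psmd5 and Psmg1 rose, and Psmb10 and Psme1 fell, each by less than 1.5-fold. Each of these 8 lost its place past the threshold when any 1 of the Zip13-KO replicates was left out.

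**Figure D1:**
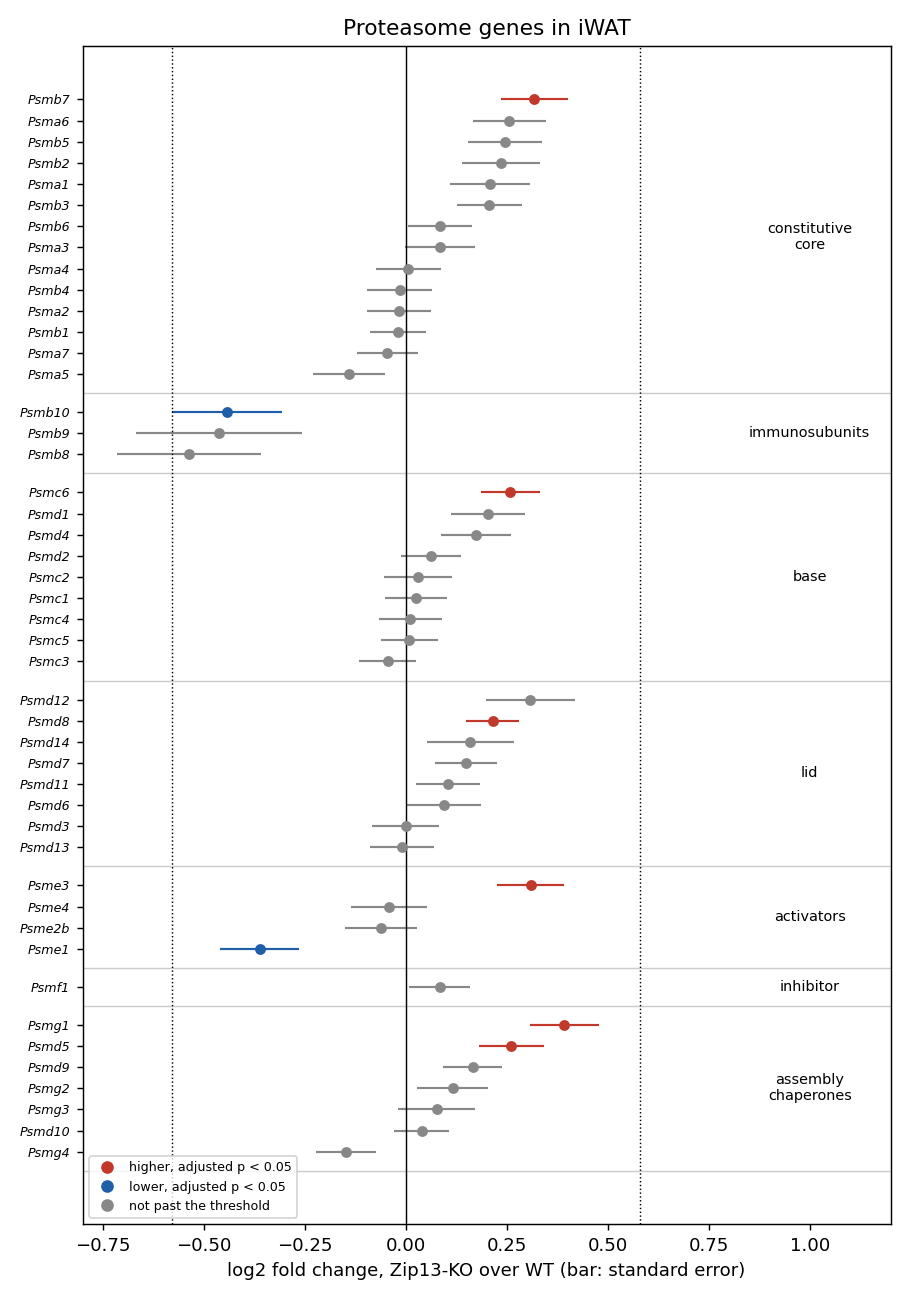
Fitted log2 fold change of the 46 tested proteasome genes (horizontal axis, Zip13-KO over WT, bars are standard errors), grouped by part of the complex. Dotted lines mark 0.58 on either side of 0, which no gene passes, and colours mark the 6 genes that rose and the 2 that fell at an adjusted p under 0.05, with all 3 immunosubunits to the left of 0.

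Psmb8, the immunosubunit with chymotrypsin-like activity, had log2 intensities of 13.39, 14.06 and 13.56 in the WT and 13.14, 13.06 and 13.19 in the Zip13-KO arrays. WT replicate 2 stood above the other WT arrays, and the genotypes did not overlap, with Zip13-KO lower. The log2 fold change was -0.54 (standard error 0.178, limma adjusted p = 0.0603), a level 1.45-fold lower that did not pass the test. Over its alternatives the p ranged from 0.0329 to 0.251, and it passed under 5 of 19. For Psmb9, which replaces Psmb6, the intensities were 13.12, 13.90 and 13.24 in the WT and 12.93, 13.00 and 12.94 in the Zip13-KO arrays. Again WT replicate 2 was the highest and the genotypes did not overlap, with a log2 fold change of -0.46 (standard error 0.206, limma adjusted p = 0.128). Psmb10, which replaces Psmb7, fell. Its intensities were 14.18, 14.58 and 14.10 in the WT and 13.87, 13.83 and 13.82 in the Zip13-KO arrays, all 3 of them below the WT arrays (log2 fold change -0.44, standard error 0.136, limma adjusted p = 0.0494). In bulk tissue, fewer cells that express a gene and less RNA per cell cannot be told apart.

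The size of these differences rested in part on WT replicate 2. Without it the log2 fold change was -0.34 for Psmb8, -0.22 for Psmb9 and -0.30 for Psmb10, and Psmb10 was no longer past the threshold (limma adjusted p = 0.0524, with a range of 0.0349 to 0.244 over its alternatives). For each of the 3 genes the Zip13-KO arrays lay below all WT arrays, so leaving out the highest WT array could not make them overlap. WT replicate 2 was the highest WT array for 40 of the 46 members, against 27.8% of all genes tested. WT replicate 1 was the lowest WT array for 37 of the 46, a count not made over all genes. Without WT replicate 1 the median change over the members was 0.03 in place of 0.08.

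The constitutive partners of the immunosubunits did not share their direction. Psmb5, the chymotrypsin-like subunit that Psmb8 displaces, had log2 intensities of 14.84, 15.07 and 15.02 in the WT and 15.24, 15.29 and 15.13 in the Zip13-KO arrays. Both genotypes were clear of each other, and the log2 fold change was 0.25 (standard error 0.0918, limma adjusted p = 0.0833) with the brighter probe and also 0.25 with the other. Psmb6, the caspase-like subunit, gave 14.52, 14.68 and 14.62 in the WT against 14.74, 14.71 and 14.63 in the Zip13-KO arrays. Here WT replicate 2 lay among the Zip13-KO arrays, and the log2 fold change of 0.09 (standard error 0.0792, limma adjusted p = 0.431) was about as large as its error. Psmb7, the trypsin-like subunit, rose, from 12.25, 12.45 and 12.45 in the WT to 12.71, 12.68 and 12.71 in the Zip13-KO arrays. All 3 Zip13-KO arrays lay within 0.03 of each other and above every WT array (log2 fold change 0.32, standard error 0.0834, limma adjusted p = 0.0312).

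**Figure D2:**
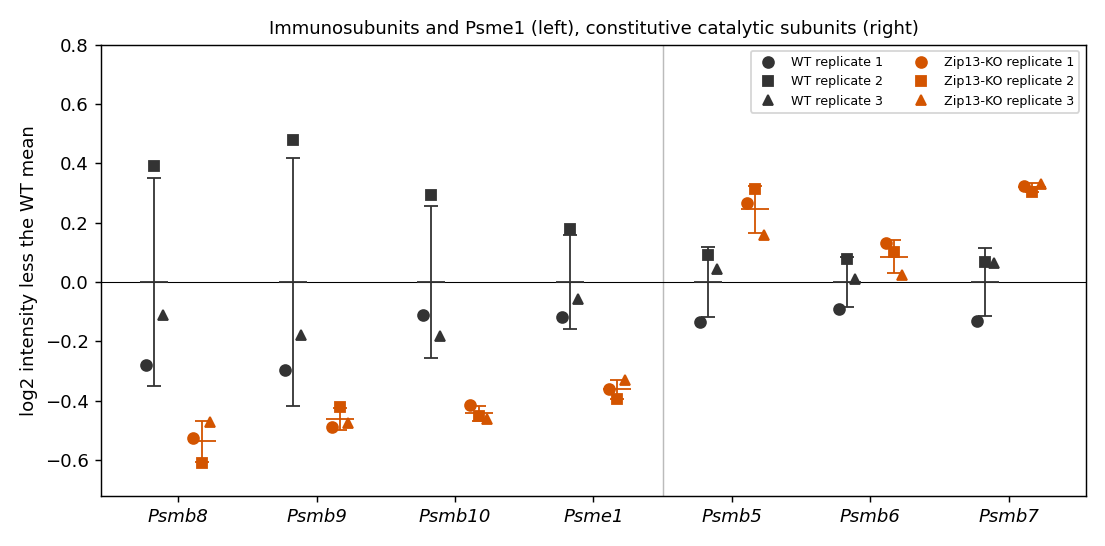
Log2 intensity less the mean of the WT arrays (vertical axis) on each of the 6 arrays, for the 3 immunosubunits and Psme1 on the left and the constitutive catalytic subunits on the right. Symbols are replicates, and horizontal ticks with bars are the genotype mean and SD (n = 3). All Zip13-KO arrays lie below the WT arrays on the left and above them for Psmb5 and Psmb7, and WT replicate 2 is the highest WT array for all 7 genes.

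Whether each immunosubunit moved apart from the subunit it displaces was tested on the difference between the 2 probes within each array, of which only the change between genotypes carries meaning. Relative to the WT mean, the difference for Psmb8 less Psmb5 was -0.15, 0.30 and -0.15 in the WT and -0.79, -0.92 and -0.63 in the Zip13-KO arrays. For Psmb9 less Psmb6 it was -0.21, 0.40 and -0.19 against -0.62, -0.52 and -0.50, and for Psmb10 less Psmb7 it was 0.02, 0.23 and -0.25 against -0.74, -0.75 and -0.79. In all 3 pairs the Zip13-KO arrays lay below the WT arrays without overlap. For the Psmb8 and Psmb10 pairs this follows from the values above, where both genes were free of overlap, in opposite directions. The permutation p of these pairs was thus fixed by those values and adds nothing to them. The shift was -0.78 (standard error 0.173) for the Psmb8 pair, a 1.72-fold lower ratio. It was -0.55 (standard error 0.204, 1.46-fold) for the Psmb9 pair and -0.76 (standard error 0.138, 1.70-fold) for the Psmb10 pair. The exact permutation test, two-sided, gave p = 0.1 for each pair, the smallest that 3 arrays against 3 allow, and 0.1 after adjustment over the 3 pairs. Without WT replicate 2 the shifts were -0.63, -0.35 and -0.65. A shift of all probes of an array cancels in such a difference, and with scaling by the 75th percentile of each array the shifts were -0.78, -0.59 and -0.69.

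**Figure D3:**
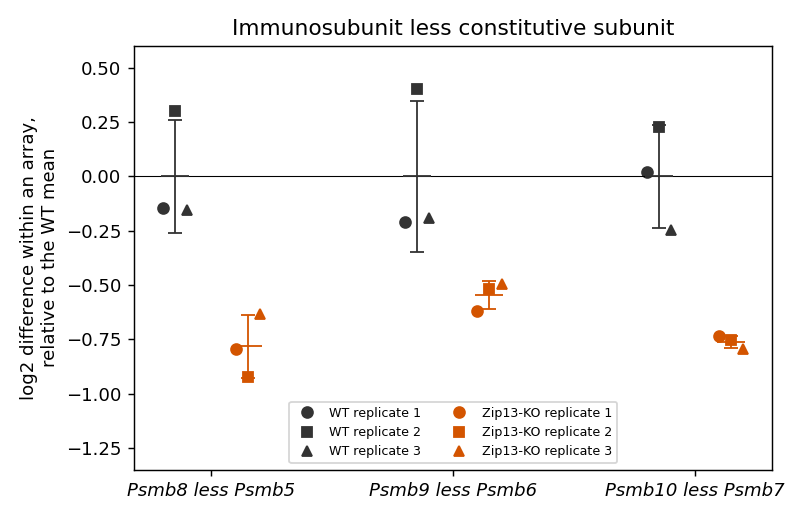
Log2 intensity of an immunosubunit less that of the constitutive subunit it replaces on the same array, set relative to the WT mean (vertical axis), for the 3 pairs. Symbols are replicates, and ticks with bars are the genotype mean and SD (n = 3). The Zip13-KO arrays lie between -0.92 and -0.50 and the WT arrays between -0.25 and 0.40.

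The alpha ring, whose subunits form the gate of the core, showed no member past the threshold among the 7 tested, and its median was 0.01. Psma6 was the highest, at 12.58, 12.82 and 12.81 in the WT and 13.01, 13.01 and 12.96 in the Zip13-KO arrays (log2 fold change 0.26, standard error 0.0904, limma adjusted p = 0.0712). Psma5 was the lowest, at 12.86, 13.07 and 12.84 in the WT and 12.81, 12.80 and 12.75 in the Zip13-KO arrays (log2 fold change -0.14, standard error 0.0886, limma adjusted p = 0.252). The genotypes did not overlap for either gene, in opposite directions. The 4 beta subunits without a cutting site had a median of 0.10. Among them, Psmb2 gave 9.68, 9.98 and 9.76 in the WT and 10.05, 10.04 and 10.04 in the Zip13-KO arrays (log2 fold change 0.24, limma adjusted p = 0.105). For Psmb1 the genotypes overlapped, with 13.09, 13.02 and 13.02 in the WT and 13.06, 12.99 and 13.02 in the Zip13-KO arrays (log2 fold change -0.02, limma adjusted p = 0.847).

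In the base, 1 of 9 members rose, beside 19.3% of all genes. This was Psmc6, an ATPase of the ring that threads substrates into the core, at 11.23, 11.33 and 11.35 in the WT and 11.58, 11.60 and 11.51 in the Zip13-KO arrays. Its arrays did not overlap (log2 fold change 0.26, standard error 0.0732, limma adjusted p = 0.0387), but the call was lost on leaving out any 1 of the 6 arrays. Of the other 5 ATPases, by the brightest probe, none lay further from 0 than the -0.05 of Psmc3, which gave 14.73, 14.80 and 14.75 in the WT and 14.78, 14.66 and 14.71 in the Zip13-KO arrays (limma adjusted p = 0.645). The dimmer probes lay further out, at -0.11 for Psmc3 and 0.15 for Psmc2, in both cases without overlap between the genotypes. The scaffold subunit Psmd1 had intensities of 12.94, 13.17 and 13.12 in the WT and 13.30, 13.33 and 13.21 in the Zip13-KO arrays, without overlap (log2 fold change 0.20, limma adjusted p = 0.127). Psmd2, the other large scaffold, gave 13.22, 13.38 and 13.30 against 13.40, 13.35 and 13.34, where WT replicate 2 lay among the Zip13-KO arrays (log2 fold change 0.06, limma adjusted p = 0.541). For the ubiquitin receptor Psmd4 the log2 fold change was 0.17 (limma adjusted p = 0.163).

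In the lid, 1 of 8 members rose, beside the same 19.3%. This was Psmd8, whose WT arrays, at 11.95, 11.97 and 11.98, were close together and lay below the 12.21, 12.16 and 12.18 of the Zip13-KO arrays (log2 fold change 0.22, standard error 0.0653, limma adjusted p = 0.0476). This call too was lost on leaving out any 1 of the 6 arrays, and with the deposited table (limma adjusted p = 0.0558). The limma adjusted p ranged from 0.0198 to 0.153 over the alternatives fitted with limma, other than the slide column as a block. Psmd12, a structural subunit, was further from 0 but more scattered. It gave 12.86, 13.14 and 13.19 in the WT and 13.45, 13.35 and 13.31 in the Zip13-KO arrays (log2 fold change 0.31, standard error 0.11, limma adjusted p = 0.0736), and 0.21 with its other probe. At the other end, Psmd13 gave 12.20, 12.36 and 12.35 in the WT and 12.35, 12.30 and 12.24 in the Zip13-KO arrays, with overlap (log2 fold change -0.01, limma adjusted p = 0.943). Psmd14, the enzyme of the lid that cuts off ubiquitin, had a log2 fold change of 0.16 (limma adjusted p = 0.28).

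The activators, which open the gate of the core without ATP, went different ways. Psme1 is induced by interferon gamma together with the immunosubunits and forms a ring with Psme2. It fell, from 13.73, 14.03 and 13.79 in the WT to 13.49, 13.46 and 13.52 in the Zip13-KO arrays, with WT replicate 2 the highest and no overlap (log2 fold change -0.36, standard error 0.0981, limma adjusted p = 0.0348). Without WT replicate 2 its log2 fold change was -0.27 and did not pass the threshold (limma adjusted p = 0.0633). Over the alternatives fitted with limma, other than the slide column as a block, the limma adjusted p of Psme1 ranged from 0.0191 to 0.12. Psme3, the nuclear activator, rose, from 11.24, 11.15 and 11.24 in the WT to 11.59, 11.40 and 11.56 in the Zip13-KO arrays, also without overlap (log2 fold change 0.31, standard error 0.0837, limma adjusted p = 0.0345). Psme4, an activator known for its role in the testis and in DNA repair, gave 8.98, 9.13 and 8.99 in the WT and 9.10, 9.02 and 8.86 in the Zip13-KO arrays (log2 fold change -0.04, limma adjusted p = 0.759).

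Psme2b is a near copy of Psme2, so the signal of its 3 probes is uncertain and may hold Psme2 transcript. The brightest probe gave 15.10, 15.36 and 15.26 in the WT and 15.20, 15.20 and 15.14 in the Zip13-KO arrays, with overlap (log2 fold change -0.06, limma adjusted p = 0.621). The other probes lay at -0.22 and -0.75, and only for the dimmest, with 9.17, 9.00 and 9.07 in the WT and 8.37, 8.46 and 8.15 in the Zip13-KO arrays, were all Zip13-KO arrays lower. When all probes of a gene were averaged, the activators had a median of -0.23 in place of -0.05.

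Of the 7 chaperones that help assemble the particle, 2 rose, beside 19.3% of all genes. Psmg1, of the pair that starts the alpha ring, had the largest rise of all members, from 12.11, 12.33 and 12.31 in the WT to 12.64, 12.66 and 12.63 in the Zip13-KO arrays (log2 fold change 0.39, standard error 0.0854, limma adjusted p = 0.0187). Its other probe gave 0.36, and the genotypes did not overlap. Psmd5, which holds ATPases of the base before they join, rose from 10.07, 10.24 and 10.10 in the WT to 10.43, 10.42 and 10.34 in the Zip13-KO arrays (log2 fold change 0.26, standard error 0.0802, limma adjusted p = 0.0488). Psmg4, of the other chaperone pair for the alpha ring, lay the other way, at 9.76, 9.90 and 9.85 in the WT and 9.68, 9.65 and 9.73 in the Zip13-KO arrays (log2 fold change -0.15, limma adjusted p = 0.166). The base chaperone Psmd10 (gankyrin) gave 9.61, 9.70 and 9.63 in the WT and 9.69, 9.71 and 9.66 in the Zip13-KO arrays, with overlap (log2 fold change 0.04, limma adjusted p = 0.677). The inhibitor Psmf1 gave 8.90, 9.04 and 8.95 in the WT and 9.09, 8.99 and 9.07 in the Zip13-KO arrays (log2 fold change 0.08, limma adjusted p = 0.414), also with overlap.

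How many members lay above 0 depended on how arrays were scaled. Scaled by the 75th percentile of each array, 39 of 46 members lay above 0 in place of 31, 14 (30.4%) rose and 0 fell at an adjusted p under 0.05 in place of 6 and 2, beside 21.6% and 13.5% of all genes on that scale, and the median was 0.25 in the core and 0.19 in the base. The median over all genes was 0.03 there. On that scale the immunosubunits stayed below 0, with a median of -0.33, and neither Psmb10 (-0.28, limma adjusted p = 0.124) nor Psme1 (-0.22, limma adjusted p = 0.12) passed the threshold. With the column of the slide as a block, 0 members rose and 0 fell at an adjusted p under 0.05, while 0 and 7 of all genes passed, and the immunosubunit median was -0.49. That fit rests on Zip13-KO replicate 1 alone, the lone knockout array beside the WT in column 1. Relative to the WT mean, this array lay at -0.53 for Psmb8, -0.49 for Psmb9, -0.41 for Psmb10, -0.36 for Psme1 and 0.32 for Psmb7.

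Genes linked to the immunosubunits outside the name rule were also measured. Of 12 genes for MHC class I peptide supply and loading, 11 lay below 0, with a median of -0.17, and the genotypes did not overlap for 3 of them, all lower, beside 25.9% of all genes. Only 1 was called lower, beside 8.38% of all genes. This was Tap1, which shares most of its promoter window with Psmb9 (log2 fold change -0.65, limma adjusted p = 0.046). B2m, the light chain of the class I molecule, was the highest at 0.04 (limma adjusted p = 0.771). Of 13 genes of the interferon axis, 12 lay below 0, with a median of -0.39, and 6 were called lower. They include the transcription factors Irf7 (-1.62), Irf8 (-0.87) and Stat2 (-0.84) and the receptor chain Ifngr2 (-0.60), with limma adjusted p-values of 0.008, 0.005, 0.016 and 0.007. Irf1, a transcription factor induced by interferon gamma, lay at -0.10 and did not pass the test (limma adjusted p = 0.751). The receptor chain Ifnar2 rose by 0.27 (limma adjusted p = 0.029).

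Markers of leukocytes, the cells in which immunosubunits are the standard form, moved the same way. Over all genes tested, 8.38% were called lower. All 8 general leukocyte markers lay below 0, 7 of them called lower, with a median of -0.66, from Cd52 (-0.53) to Laptm5 (-1.13). Their summed intensity was 116704 to 120801 units (WT) and 76205 to 78305 (Zip13-KO), while that of the 3 immunosubunits was 38122 to 56812 and 31294 to 31832. Of 12 macrophage markers, all lay below 0 and 10 were called lower, with a median of -1.26, and their sum was 102304 to 160687 units (WT) and 47491 to 62394 (Zip13-KO). All 13 lymphocyte markers lay below 0 with a median of -0.41, and their sum was 74372 to 90852 (WT) and 53902 to 60927 (Zip13-KO). All 5 dendritic cell markers lay below 0 with a median of -0.52 and 1, Itgax, called lower, and their sum was 2333 to 4005 (WT) and 1862 to 2157 (Zip13-KO). Every marker of these 4 lists was well above background in at least 1 genotype.

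The order of the WT arrays was not the same in these lists. Relative to the WT mean, the median over the 3 immunosubunits was -0.28, 0.39 and -0.18 in WT replicates 1, 2 and 3, and that over the class I genes was -0.12, 0.21 and -0.09, with WT replicate 2 the highest in both. The leukocyte markers gave 0.02, -0.04 and 0.02, the macrophage markers 0.36, -0.07 and -0.23, and the lymphocyte markers -0.07, -0.11 and 0.23, so that WT replicate 2 was not the highest in these 3 lists. It was the highest in the dendritic cell markers, at -0.36, 0.20 and 0.12, and in the interferon list, at 0.01, 0.02 and -0.04. The Zip13-KO arrays lay below every WT array in each of these lists other than the dendritic cell markers, where they gave -0.03, -0.59 and -0.32. The part of the leukocyte content of the tissue in the differences of Psmb8, Psmb9, Psmb10 and Psme1 was not tested.

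**Figure D4:**
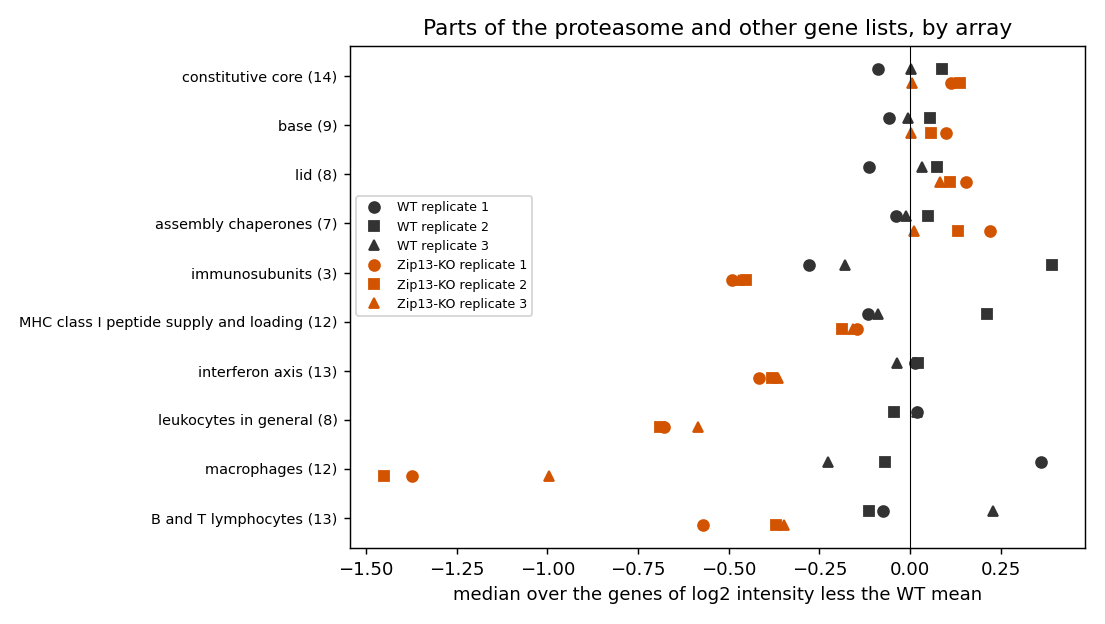
Median over the genes of a list of the log2 intensity less the WT mean (horizontal axis), on each of the 6 arrays, for 5 parts of the proteasome and 5 other lists (number of genes in brackets). Dark symbols are WT and orange symbols Zip13-KO arrays. The immunosubunits and the class I, interferon and leukocyte lists have all Zip13-KO arrays below the WT arrays, while the core, base, lid and chaperones lie within 0.25 of 0 on every array.

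Markers of other cell types of the tissue were measured beside these. Among all genes tested, 10.3% were called higher and 8.38% lower. The 8 adipocyte markers lay above 0 with a median of 0.56 and 2 called higher, and their sum was 402141 to 543679 units (WT) and 636923 to 659009 (Zip13-KO). The 7 markers of stromal progenitors and fibroblasts lay below 0 with a median of -0.65 and 3 called lower, and their summed intensity spanned 178838 to 381376 (WT) and 156684 to 194008 (Zip13-KO). The 6 endothelial markers had a median of 0.22 with 1 called higher and sums of 9624 to 10819 (WT) and 11022 to 11762 (Zip13-KO). Of 8 muscle markers, 7 were tested, with a median of 0.87, 0 called, no gene without overlap and sums of 1953 to 4373 (WT) and 2584 to 9106 (Zip13-KO). Of 7 mammary markers, 4 were tested, with a median of 0.42, 0 called and sums of 96 to 330 (WT) and 112 to 438 (Zip13-KO), while Csn2, Krt8 and Wap were not well above background. The part of these cell types in the proteasome values was not tested.

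Genes that act with the constitutive proteasome were measured next. Of 15 tested proteins that bind or serve the particle, 11 lay above 0 with a median of 0.13, and 2 rose, beside 19.3% of all genes. They were the ubiquitin receptor Adrm1 (log2 fold change 0.30, limma adjusted p = 0.024) and the shuttle protein Ubqln4 (0.34, limma adjusted p = 0.039). The lowest was Sem1, a small lid protein, at -0.10 (limma adjusted p = 0.334). Among 14 genes of the Nfe2l1 and Nfe2l2 axis the median was -0.09. Nfe2l1 rose by 0.41 (limma adjusted p = 0.048) and Ngly1, the glycanase that acts on its protein, by 0.38 (limma adjusted p = 0.013), while Ddi2, the protease that activates it, fell by 0.38 on the log2 scale (limma adjusted p = 0.021). Hmox1, a target of Nfe2l2 that macrophages also express, was called lower (-2.20, limma adjusted p = 0.011). Others of this list did not pass an adjusted p of 0.05. Among these were Nfe2l2 itself (-0.12), Nqo1 (-0.20), Gclm (0.12), Gclc (-0.06), Srxn1 (-0.52) and Txnrd1 (-0.11). Of the 6 ubiquitin and E1 genes, Rps27a fell by 0.38 on the log2 scale (limma adjusted p = 0.013).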

How the data were processed

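Total RNA of iWAT was labelled with Cy3 and hybridized to Agilent SurePrint G3 arrays, 3 WT and 3 Zip13-KO. Per the file headers, the intensity values come from Feature Extraction 11.5.1.1, which subtracted background and spatial trends but did not normalize between arrays. The authors also deposited a table of log2 intensities, quantile normalized and not corrected for background, used here as an alternative. Processed signals were taken as log2, control and outlier spots were left out, spots of a probe averaged, and the arrays quantile normalized. A probe was kept if well above background on all 3 arrays of a genotype (33047 of 55681), named by its RefSeq transcript (GRCm38.p6; 20319 kept probes), and the brightest stood for a gene. The files' array design was annotated on mm9, so only promoter windows carry coordinates. Among the members, 37 had 1 probe and 11 had more, whose changes differed in sign only for Psmc1 (-0.02 and 0.02).

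Genotypes were compared with limma 3.58.1 in R 4.3.3 (lmFit, eBayes; Benjamini-Hochberg over 15307 genes), tested on simulated data. Within-array differences of 3 pairs were compared by exact permutation. The thresholds and the quantile normalization follow the supplementary methods, and limma replaces their integrative test. The members and lists were chosen with earlier results of these data known. Values of each array are given for the immunosubunits, the subunits they replace, Psme1, called members, and the highest and lowest member of each part; Psmd8, Psmd5 and the Psme2b probes were added because they passed the adjusted p or for the copy of Psme2. Outside the members, called genes (up to 4 a list) and the extremes of a list are named. Irf1, Nfe2l2, Nqo1, Gclm, Gclc, Srxn1, Txnrd1 and genes behind counts of 5 or fewer were named after their values were seen. Alternatives were each array's 75th percentile, normexp (offset 50) and no background correction (both on the median signal, since no mean signal was in the files), the deposited table, no filter or one on all 6 arrays, the mean of a gene's probes, an intensity trend with robust prior, the replicate block, the slide column as a block, the methods' t-test, adjusted or not, a 2-fold threshold, and leaving out each array. The number of arrays limits the precision.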

Additional observations from a re-analysis of the deposited data

How the results depend on the processing

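The count of 0 members called higher kept under all 19 alternatives, and that of 0 called lower under 18. Without WT replicate 1, 1 member (Psmb8, log2 fold change -0.68) was called lower. The range on leaving out an array was thus 0 to 1. Among these alternatives, the 2-fold threshold could not give another count, since a stricter threshold adds no calls. The 6 members higher at an adjusted p under 0.05 became 14 with the 75th percentile, 0 with the replicate block, 0 with the slide column as a block, 11 by the methods' t-test unadjusted, and 0 to 3 on leaving out an array (0 without any 1 of the Zip13-KO replicates, 3 without WT replicate 1 or 2, and 2 without WT replicate 3). The 2 members lower became 0 with the 75th percentile, 1 with no filter on dim probes, 0 with the replicate block, 0 with the slide column as a block, 0 by the methods' t-test after Benjamini-Hochberg adjustment, and 0 to 2 on leaving out an array (0 without WT replicate 2 or any 1 of the Zip13-KO replicates, and 1 without WT replicate 3). With the slide column as a block, the genotype change rests on Zip13-KO replicate 1 alone, the only knockout array in a column with WT arrays. Leaving out an array leaves fewer samples, and the counts over all genes moved too. Of 15307 genes, 2951 were higher and 2330 lower at an adjusted p under 0.05. They became 3304 and 2067 with the 75th percentile, 1736 and 1454 with the replicate block, and 1952 and 1495 by the methods' adjusted t-test. By the unadjusted t-test, 3596 were higher and 2952 lower. On leaving out an array, 1221 to 2704 were higher and 972 to 2167 lower. The cause of the other moves was not tested. Same-numbered arrays did not deviate together (r = -0.02, 0.04 and -0.08 across genes). With 3 arrays per genotype this cannot exclude a pairing, on which the labels say nothing.

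The median change was 0.25 in the core and 0.19 in the base with the 75th percentile, 0.10 in the base and 0.22 in the chaperones with the slide column as a block, and -0.23 in the activators with the mean of a gene's probes, and the cause was not tested. The medians of the immunosubunits (-0.61 to -0.30 over all alternatives) and of the lid kept their direction, while those of the base and the activators crossed 0 under some alternatives (to -0.0009 and 0.0121). The 3 pair differences stayed below 0 under all 13 alternatives each, from -0.86 to -0.63 for Psmb8, -0.65 to -0.35 for Psmb9 and -0.89 to -0.65 for Psmb10. No result changed direction while called. Signal over background limits only Psma8 and Psmb11.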
